A study of Mus musculus with 4 samples.

Results

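Histone genes fall into cluster genes and variant genes. Cluster genes carry the symbols Hist1h to Hist4h and mostly sit together, at 4 loci of which Hist4 holds 1 gene. Variant genes carry the symbols H2af, H3f3 and H1f and mostly stand alone, though H2afj lies near the Hist4 gene. The members were the genes whose symbol begins with one of these stems, leaving out symbols that end in a pseudogene suffix. They numbered 85 of 50600 annotated genes, namely 67 cluster genes, 17 variant genes and 1 antisense RNA, H3f3aos. RNA was sequenced from mouse regulatory T cells, the Foxp3-expressing helper lineage that holds back other immune cells. There was a single group of 4 libraries from C57BL/6NJ mice, labelled as biological replicates, with no mutant allele, added agent, sex or age stated, and the cells were differentiated by a CD4 T cell protocol. Alignment names in the headers read activated, bulk and 72 h. All 4 share 1 donor identifier, so a p-value here reflects only how these libraries vary, which may be technical. The labels called the assay total RNA-seq and linked a library protocol for poly(A)+ RNA. This bears on the members, because most cluster mRNAs carry no poly(A) tail.

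Replicates 1 to 4 held 121477975, 62472060, 73690296 and 51460018 fragments counted on genes. A floor of 3 counts was worth 0.0247 CPM (counts scaled to the depth of the library) in replicate 1 and 0.0583 CPM in replicate 4, the shallowest library. All 5 regulatory T cell markers that were looked at exceeded 100 TPM, a transcript level that takes gene length and library depth into account, with Foxp3 at 448 ± 27.8 TPM (SD, n = 4). Of 4 B cell markers, 0 reached 1 TPM in every library, and their summed level ranged from 0.346 to 1.21 TPM. The erythroid and NK cell lists likewise had 0 of 3 and 0 of 2 genes at that level, and the macrophage and dendritic cell list had 1 of 5, Adgre1. Of the 2 CD8 T cell genes, 1 reached it in every library, Cd8b1 at 11.5 TPM.

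Histones H2A, H2B, H3 and H4 form the protein core around which DNA is wound, and H1 binds the DNA between cores. Cluster genes are copied in bulk during DNA replication, and their mRNA ends not in a poly(A) tail but in a stem-loop that is bound by Slbp. Variant genes are transcribed outside S phase too, most have introns or a poly(A) tail, and their products replace the bulk histones at particular sites.

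The stem-loop is shown for the most abundant cluster genes and for the variant that also carries it, because it is the feature that separates the mRNA ends of the 2 groups. It was searched on the sense strand of GENCODE M21 transcripts (GRCm38) as 2 guanines, any 3 bases, 3 thymines, any 2 bases, an adenine, any 3 bases and 2 cytosines, with the last 6 bases the reverse complement of the first 6. Capitals mark the 16 bases of this motif, and lower case marks 5 bases on each side, 5′ to 3′.
Hist1h4i (chr13:22040966-22040981, minus strand): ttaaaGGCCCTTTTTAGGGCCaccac
Hist1h4d (chr13:23581950-23581965, plus strand): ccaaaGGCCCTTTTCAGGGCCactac
Hist1h1c (chr13:23739512-23739527, plus strand): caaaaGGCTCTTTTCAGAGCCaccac
Hist1h2bj (chr13:22043638-22043653, plus strand): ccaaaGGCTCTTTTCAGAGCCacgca
Hist1h2ae (chr13:23570668-23570683, minus strand): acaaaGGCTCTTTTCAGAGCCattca
Hist1h3c (chr13:23745047-23745062, minus strand): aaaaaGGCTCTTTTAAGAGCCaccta
H2afx (chr9:44335240-44335255, plus strand): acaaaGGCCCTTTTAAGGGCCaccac
The coordinates are those of the capitals. The motif was found in 42 of 67 cluster genes (62.7%), in 1 of 17 variant genes and in 37 of 55365 other genes (0.0668%). The most frequent form, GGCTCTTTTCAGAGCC, stood in 24 cluster genes of the H1, H2A, H2B and H3 classes. The form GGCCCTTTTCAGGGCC stood in 7 genes, all of the H4 class. A gene without the motif here may have an annotated model that stops before the stem-loop, as many models that hold little more than the coding sequence do.

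Cluster genes were counted at far lower levels than variant genes in every library. The 67 cluster genes together took 3923, 1556, 2359 and 1330 counts in replicates 1 to 4, and the 17 variant genes took 184507, 88898, 112795 and 75588. In CPM this was 28.8 ± 3.93 CPM for cluster genes and 1485 ± 49.4 CPM for variant genes (SD, n = 4). After correction for length, the summed level of cluster genes was 165, 119, 158 and 134 TPM, and that of variant genes was 2068, 1951, 2065 and 1989 TPM. The 2 sums did not overlap in any library, and the variant sum over the cluster sum was 12.5, 16.4, 13.03 and 14.9 in TPM. The median level of cluster genes minus that of variant genes, on the log2(TPM + 0.1) scale, was -5.38, -6.20, -5.24 and -5.61, a mean of -5.61 ± 0.42 (SD, n = 4). These are counted levels under the counting described here, and the part that poly(A) selection plays in them was not tested.

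At least 1 TPM in every library was reached by 20 of 67 cluster genes and 9 of 17 variant genes. The same was true of 23.7% of all genes and of 48.9% of protein-coding genes, so the cluster genes lay between these shares and the variant genes near the protein-coding one. A mean of 10 TPM or more was reached by 3 cluster genes and by the same 9 variant genes that reached 1 TPM throughout. A mean of 100 TPM was reached by 0 cluster genes and by 6 variant genes. At the other end, 11 cluster genes and 5 variant genes had 0 counts in all 4 libraries, as did 27494 of 50600 genes and 6697 of 21764 protein-coding genes. A count of 0 in replicate 1 lies below the floor of 3 counts, or 0.0247 CPM. This floor covers counting error only and sets no limit on the level of a gene whose sequence is shared with another.

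**Figure D1:**
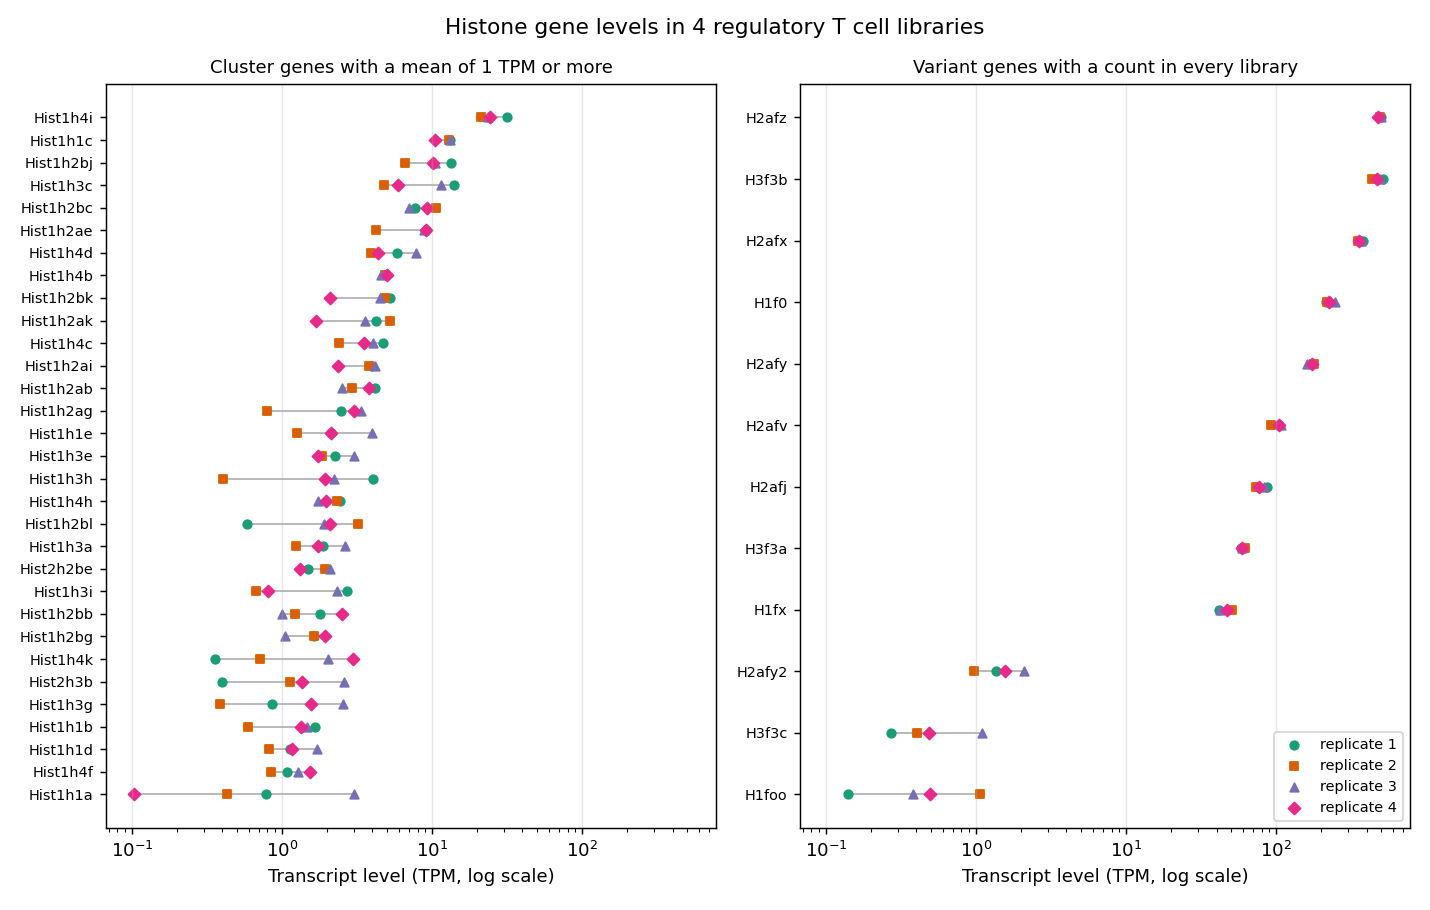
Level of each gene in TPM on a log axis, with 1 point per library and a grey line over the range, for the 31 cluster genes with a mean of 1 TPM or more (left) and the 12 variant genes with a count in every library (right). Hist1h4i, the highest cluster gene at a mean of 25.05 TPM, lies below 9 variant genes, and the median coefficient of variation of a gene's TPM was 49.9% among cluster genes with a count and 6.98% among such variant genes. Both values include counting error, which is larger for the cluster genes. Those with a count had a median of 66.5 counts over all libraries.

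Among the linker histones, Hist1h1c led the cluster genes. Hist1h1c (chr13:23738808-23740367, plus strand, mm10, a single exon) had 730, 366, 450 and 246 counts, or 13.1, 12.98, 13.1 and 10.5 TPM. Replicate 4 was the low library and the other three were nearly equal. Hist1h1e, the next H1 cluster gene, had 57, 17, 66 and 24 counts and averaged 2.38 ± 1.16 TPM. Hist1h1c exceeded Hist1h1e in 4 of 4 libraries, by 2.44 ± 0.66 on the log2(TPM + 0.1) scale. The testis form Hist1h1t had 0 counts throughout. Of the solitary linker genes, H1f0, which accumulates in many non-dividing cells, had 216, 217, 244 and 226 TPM (chr15:79028212-79030498). H1fx had 41.9, 51.1, 42.4 and 47.2 TPM. Hist1h1c minus H1f0 was -4.18 ± 0.18, and H1f0 minus H1fx was 2.31 ± 0.18, each with the same sign in 4 of 4 libraries. Cluster genes made up 6.30 ± 1.04% of the summed TPM of the H1 class as counted. H1foo, the oocyte linker histone, had 6, 23, 10 and 9 counts, and H1fnt, a testis form, had 0.

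Among the H2A genes the variants held nearly the whole class as counted. Cluster genes made up 1.99 ± 0.31% of its TPM (SD, n = 4). This share is of counted levels and may understate the cluster genes. In the median H2A cluster gene 70.7% of 100-base stretches also occur in another gene, and 6 of the 20 had 0 counts. The parts of shared sequence and of poly(A) selection in the share were not tested. The leading cluster gene, Hist1h2ae (chr13:23570662-23571121), had 150, 35, 89 and 63 counts, or 9.12, 4.21, 8.78 and 9.08 TPM. Its level in replicate 2 stood below the other three. Hist1h2ak followed at 4.20, 5.21, 3.58 and 1.69 TPM, where replicate 4 and not replicate 2 was the low one. H2afz, which encodes the variant H2A.Z placed at promoters by the SRCAP and EP400 complexes, had the highest mean TPM of all members. H3f3b was higher in replicate 1, and in CPM both H3f3b (417) and H2afy (341) exceeded H2afz (256). H2afz had 498, 491, 501 and 475 TPM (chr3:137864487-137866922). H2afx, whose product is phosphorylated at DNA breaks, had 381, 351, 368 and 355 TPM (chr9:44334694-44336077, a single exon). H2afz minus H2afx was small but of 1 sign in 4 of 4 libraries, at 0.43 ± 0.04 on the log2 scale (0.79 in CPM). H2afv, the second gene for H2A.Z, averaged 102 ± 6.78 TPM, and H2afz minus H2afv was 2.27 ± 0.10. H2afj averaged 80.3 ± 6.23 TPM, and H2afx minus H2afj was 2.18 ± 0.06.

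The macroH2A genes, whose products carry a large extra domain, differed most. H2afy had 168, 178, 161 and 174 TPM and H2afy2 had 1.36, 0.967, 2.09 and 1.55 TPM. H2afy minus H2afy2 was 6.79 ± 0.48, with no overlap. H2afb1, H2afb2 and H2afb3, the short H2A variants known from testis, and the pseudogene H2afy3 had 0 counts.

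The H2B class has no member among the variant symbols. Hist1h2bj (chr13:22043214-22043676) had 221, 55, 107 and 71 counts, or 13.4, 6.57, 10.5 and 10.2 TPM, lowest in replicate 2. Hist1h2bc (chr13:23684199-23692488) had 201, 141, 113 and 102 counts, or 7.64, 10.6, 6.97 and 9.19 TPM, and here replicate 2 was the highest. Hist1h2bc has 2 exons and an AATAAA signal in its counted model, and no stem-loop was found in it. Hist2h2be, with a counted length of 2620 bases and likewise no stem-loop, had 139, 92, 120 and 52 counts and averaged 1.71 ± 0.36 TPM. Its 403 counts over 4 libraries exceeded the 337 of Hist1h2ae, whose level per length was higher.

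H3 and H4 contrasted in how they are encoded. Hist1h3c led the H3 cluster genes (chr13:23745013-23745501), with 246, 42, 123 and 44 counts, or 14.1, 4.75, 11.4 and 5.97 TPM. Replicates 1 and 3 were high and replicates 2 and 4 low. Hist1h3e had 67, 28, 56 and 22 counts and averaged 2.22 ± 0.59 TPM. H3f3a and H3f3b both encode the replacement histone H3.3, and H3f3b was the higher in 4 of 4 libraries. H3f3b had 512, 432, 494 and 470 TPM (chr11:116021912-116027962) and H3f3a had 58.0, 61.8, 59.1 and 59.4 TPM (chr1:180800832-180813943). H3f3b minus H3f3a was 3.00 ± 0.14. The antisense RNA H3f3aos, which overlaps the start of H3f3a on the other strand, had 17, 12, 17 and 9 counts under strand-specific counting. Cluster genes made up 3.84 ± 1.28% of the TPM of the H3 class as counted, with the same limits as for H2A.

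The H4 class has no variant member under the symbol rule, and it held the highest cluster gene. Hist1h4i (chr13:22040636-22041362, minus strand) had 814, 278, 377 and 265 counts, or 31.3, 21.2, 23.5 and 24.2 TPM. Replicate 1 stood highest and the other three were close. Hist1h4d had 82, 28, 68 and 26 counts and averaged 5.50 ± 1.76 TPM. All 13 H4 genes had at least 1 count. Hist1h4i and Hist1h1c alone held 39.4%, 41.4%, 35.1% and 38.4% of all cluster counts in replicates 1 to 4.

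**Figure D2:**
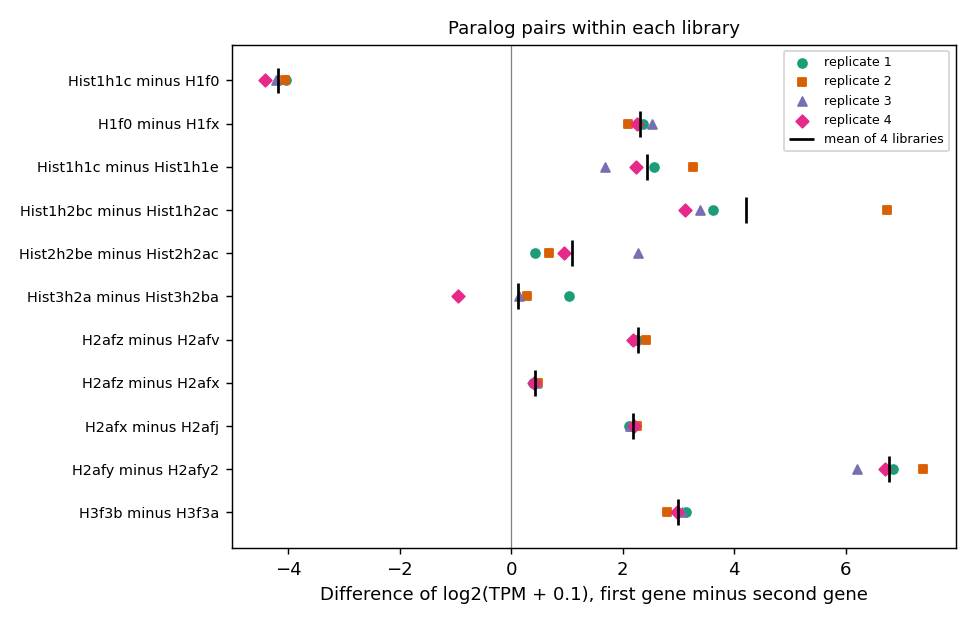
Difference of log2(TPM + 0.1) between the genes of 11 paralog pairs, first minus second, with 1 point per library and a black bar at the mean. In 9 pairs all 4 points lie above 0, Hist1h1c minus H1f0 lies below 0 throughout, and only Hist3h2a minus Hist3h2ba has points on both sides.

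Each of the 10 pairs with 1 sign in 4 of 4 libraries gave the smallest p that an exact two-sided sign-flip test allows here, 2 of 16 sign assignments, with a Benjamini-Hochberg adjusted p of 0.138 over 11 pairs. No pair could therefore pass 0.05 with 4 libraries. Hist3h2a had 58, 18, 35 and 22 counts and Hist3h2ba, its neighbour on chromosome 11, had 7, 4, 9 and 13. Their difference was 0.13 ± 0.82 and ran from -0.95 to 1.03 (exact two-sided p = 0.625), and it turned to -0.17 without replicate 1. Without length correction, in CPM, the difference was 1.27 ± 0.53 with 1 sign in 4 of 4 libraries, so the order of the pair depends on the correction for counted lengths of 2146 and 614 bases.

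Head-to-head H2A and H2B genes share the stretch between their starts, and 12 such pairs were found, 235 to 305 bases apart. In 3 of the 12 both genes had 0 counts. The 2 pairs in which the H2B gene most exceeded its H2A partner in counts are shown, because each has 1 promoter stretch and unequal partners. The sequences are from RefSeq (GRCm38.p6), plus strand, trimmed to lie between the annotated starts, with the H2A gene to the left. Capitals mark the TATA motif (TATAA), the binding box of NF-Y (CCAAT) and the octamer (ATTTGCAT), read on either strand.
Hist1h2ac to Hist1h2bc (chr13:23683960-23684198): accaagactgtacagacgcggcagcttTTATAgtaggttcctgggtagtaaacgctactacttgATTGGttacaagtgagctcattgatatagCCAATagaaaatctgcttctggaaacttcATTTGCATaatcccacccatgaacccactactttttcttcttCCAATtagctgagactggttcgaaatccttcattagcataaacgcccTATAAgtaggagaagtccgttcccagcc
Hist2h2ac to Hist2h2be (chr3:96220881-96221118): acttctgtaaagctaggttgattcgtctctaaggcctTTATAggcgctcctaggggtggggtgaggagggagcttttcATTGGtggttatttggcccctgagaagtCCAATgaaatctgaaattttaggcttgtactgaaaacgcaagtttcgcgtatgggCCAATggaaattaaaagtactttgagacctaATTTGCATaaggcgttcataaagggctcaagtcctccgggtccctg
Hist1h2bc had the counts given above, and Hist1h2ac had 9, 0, 6 and 7. Hist1h2bc minus Hist1h2ac was 4.22 ± 1.70 on the log2(TPM + 0.1) scale. The value of 6.74 in replicate 2 rests on a count of 0, and with a pseudocount of 1 the mean difference was 2.69. Hist2h2ac had 20, 11, 4 and 5 counts, and Hist2h2be minus Hist2h2ac was 1.08 ± 0.82, ranging from 0.43 to 2.28. It was 2.68 in CPM, 0.60 with a pseudocount of 1 and 0.69 without replicate 3. The opposite order also occurred. Hist1h2ae averaged 1.06 CPM and its H2B partner Hist1h2bg 0.219 CPM.

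The 3 motifs were then searched in all RefSeq promoters, from 250 bases before to 50 after the start, on both strands. A gene was scored if any of its promoters held the motif, so the shares are of genes. TATAA was found for 83.3% of 60 matched cluster genes, 20% of 15 matched variant genes and 27.99% of 27025 genes in all. CCAAT was found for 85.0% of cluster, 66.7% of variant and 41.1% of all these genes. It was found for every matched H1, H2A, H2B and H3 cluster gene and for 25% of those of H4. ATTTGCAT, the octamer read by Pou2f1, was found for 21.7% of cluster, 6.67% of variant and 1.97% of all these genes. Within the cluster it was found for 38.9% of H2A and 42.9% of H2B genes and for 0 of H1, H3 and H4. The promoters of head-to-head H2A and H2B genes overlap, so the same motif can be scored for both partners. Their shares are therefore not independent. These are matches of letters and say nothing of binding. Hist1h4i has TATAA and no CCAAT, Hist1h1c has CCAAT and no TATAA, and neither has the octamer.

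Along the chromosomes, the signal came from few positions. The Hist1 locus on chromosome 13 held 54 of the 67 genes and took 3645, 1393, 2124 and 1212 counts. The 10 Hist2 genes on chromosome 3 took 199, 126, 182 and 80. The 2 Hist3 genes took 65, 22, 44 and 35 counts, and the single Hist4h4 on chromosome 6 took 14, 15, 9 and 3. A gap of 1.49 Mb splits Hist1 into a stretch of 23 genes over 328 kb (chr13:21715763-22043676), which averaged 10.2 ± 1.87 CPM, and a stretch of 30 genes over 404 kb (chr13:23531050-23934851), which averaged 16 ± 2.22 CPM. Hist1h4i and Hist1h2bj lie within a few kilobases of each other at the far end of the first stretch. The processed pseudogene Hist1h2al lies far outside both and had 5 counts in replicate 1 and 0 in the others.

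**Figure D3:**
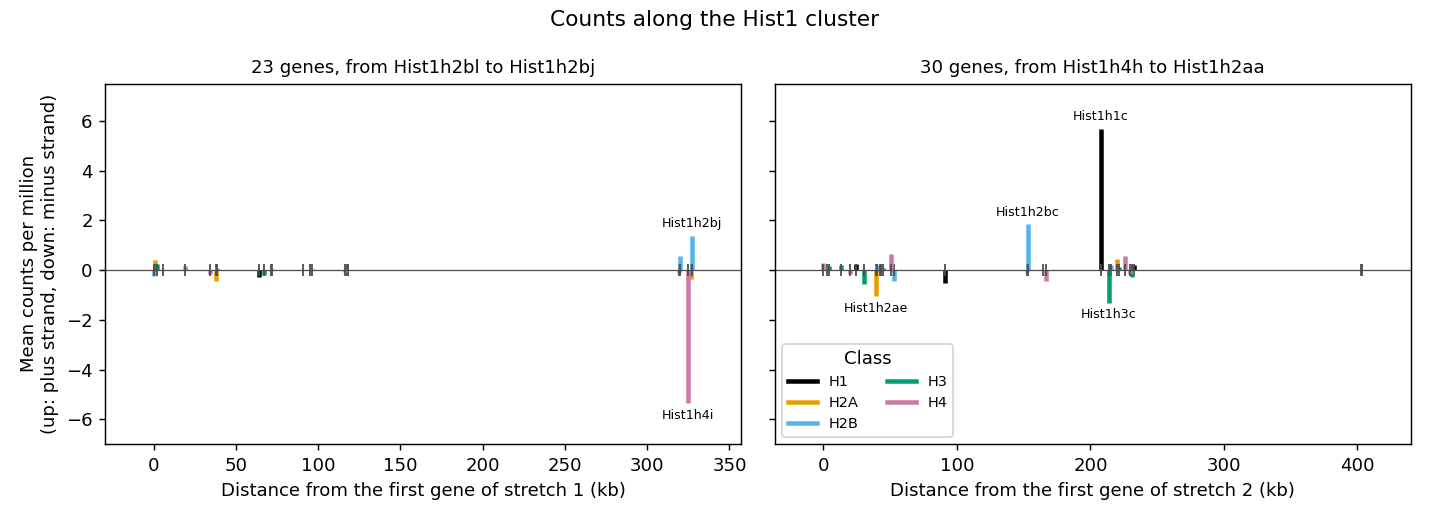
Mean CPM over 4 libraries of each Hist1 cluster gene against its distance in kb from the first gene of its stretch, for the stretch of 23 genes (left) and that of 30 genes (right). Bars point up for the plus strand and down for the minus strand, ticks mark genes, colours mark the histone class, and genes of 1 CPM or more are named. Most genes have bars well under 1 CPM, and Hist1h4i and Hist1h1c stand out.

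Cluster genes are near copies of each other, which bears on every count given for them. In the median cluster gene 42.9% of 100-base stretches also occur in the transcripts of a gene elsewhere, and in the median variant gene 0%. The counting command in the file headers has no option to count fragments that map to several places. The 11 cluster genes at 0 had a median shared portion of 85.8%, and the 56 genes with a count one of 42.5%. Of 7 cluster genes with 90% or more shared, 5 were at 0. These included Hist1h2ao, Hist1h2ap and Hist1h2bq, and their near copy Hist1h2br at 85.8% was also at 0. Sharing does not go with every 0, since the testis forms Hist1h1t, Hist1h2aa and Hist1h2ba and also Hist2h2ab had 0 counts with 0% to 27.4% shared. Hist1h4i (15.1%) and Hist1h1c (5.07%) are largely distinct, whereas Hist1h2bj (40.1%), Hist1h2bc (42.1%) and Hist1h2ae (51.5%) are uncertain in level. A low count of a shared gene therefore is not shown to be a low level.

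**Figure D4:**
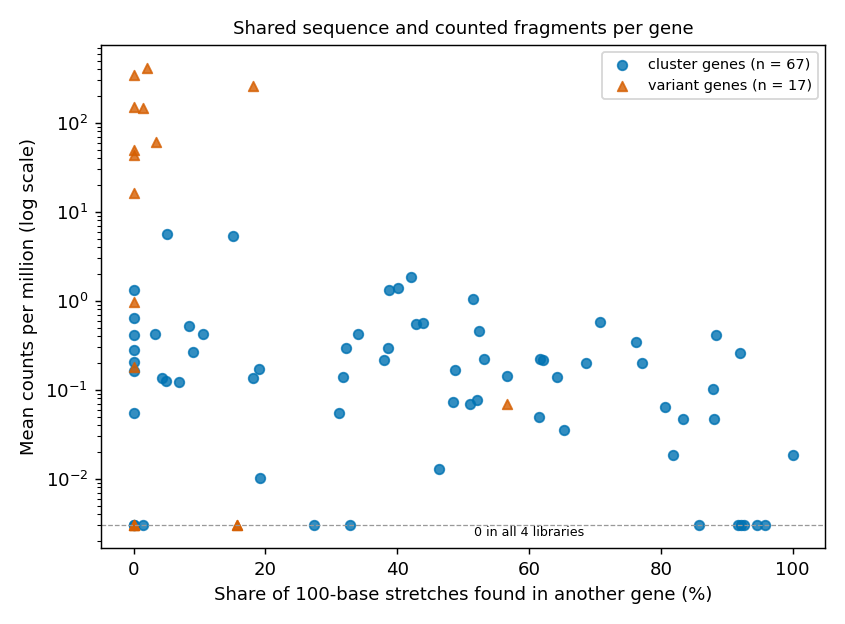
Mean CPM on a log axis against the percentage of a gene's 100-base stretches found in another gene, for 67 cluster genes (circles) and 17 variant genes (triangles). Genes with 0 counts in all 4 libraries are drawn on the dashed line, where 6 cluster genes gather beyond 80%.

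The mRNA ends were compared by how far each counted model runs past the stem-loop, since processed cluster mRNA stops just after it. Hist1h1c runs 840 bases further and has 1 AATAAA there, Hist1h4i runs 330 bases further with no AATAAA, and H2afx runs 822 bases further. Hist1h2bj, Hist1h3c and Hist1h2ae run 23, 34 and 6 bases further. The 13 cluster genes with 100 or more such bases averaged 13.3 CPM in sum, with 15.1, 12.5, 14.0 and 11.7 CPM in replicates 1 to 4. The 29 genes with fewer had 11.3, 6.37, 10.6 and 8.80 CPM. Per gene the order was the other way, with a median of 0.173 CPM in the 13 genes and 0.216 CPM in the 29. So the larger CPM sum of the first group came from Hist1h4i and Hist1h1c, and it was not kept after correction for length. In TPM the 13 genes summed to 50.8, 40.2, 44.2 and 40.3 in replicates 1 to 4. The 29 genes summed to 81.6, 46.9, 74.2 and 63.8 TPM. Gene counts do not tell where along a gene the fragments lie.

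The cluster sum differed between libraries by more than counting error. Its coefficient of variation in CPM was 13.7%, against 2.23% from counting alone, and for variant genes it was 3.33%, against 0.307%. Replicates 1 and 3 were the high ones for the cluster sum, at 32.3 and 32.0 CPM, and replicates 2 and 4 the low ones, at 24.9 and 25.8 CPM. The H3 class varied most, with 4.36, 2.03, 4.75 and 2.66 CPM and a coefficient of variation of 38.0%, where counting gives 6.78%. The H2A sums were 4.14, 2.64, 4.00 and 3.40 CPM. The H2B class had 6.71, 6.66, 6.51 and 6.26 CPM, a coefficient of variation of 3.10% that lies within the 4.64% of counting. This holds for the sum and not for its genes, which moved in opposite ways. Hist1h2bj had 1.82, 0.880, 1.45 and 1.38 CPM, whereas Hist1h2bc had 1.65, 2.26, 1.53 and 1.98 CPM. The coefficients of H1 and H4 lay between those of H3 and H2B, at 15.2% and 14.5%. Likewise the 50 cluster genes without AATAAA in the counted model had 21.3, 13.4, 19.8 and 16.4 CPM, while the 17 genes with it had 11.03, 11.5, 12.2 and 9.41 CPM. The sum of the 17 rests mostly on few genes. Of its mean of 11.04 CPM, Hist1h1c held 5.69, Hist1h2bc 1.86 and Hist2h2be 1.31 CPM. It therefore does not show how the other genes with AATAAA varied.

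**Figure D5:**
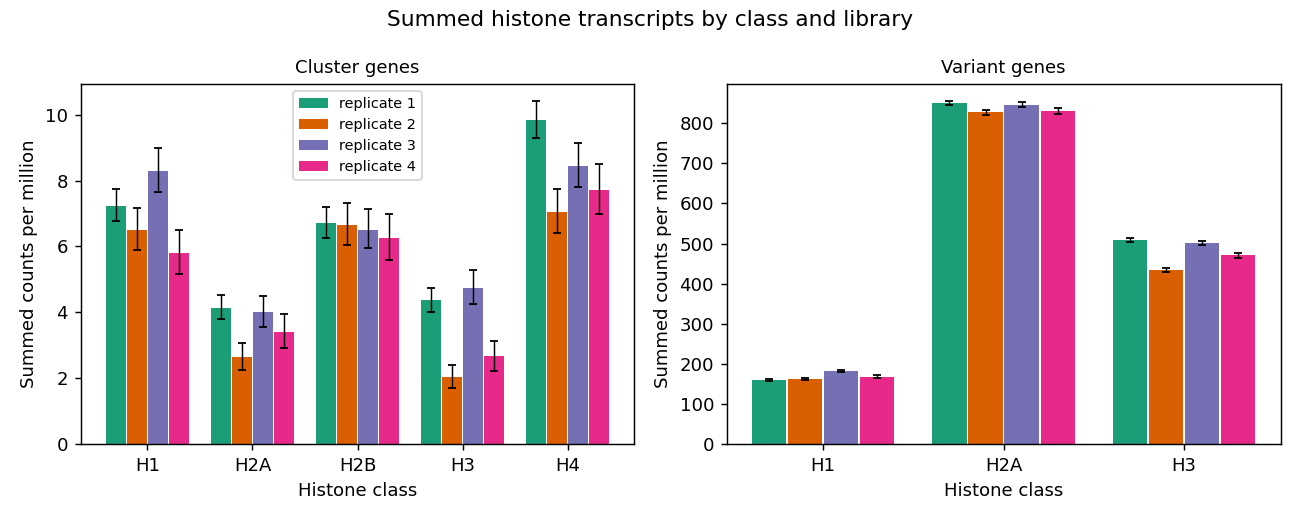
Summed CPM by histone class and library for cluster genes (left) and variant genes (right, on its own scale), with bars from 0 and exact 95% Poisson intervals that cover counting error only. The H3 bars of the cluster genes are high in replicates 1 and 3 and low in replicates 2 and 4, at 2.03 to 4.75 CPM, whereas the H2B bars lie between 6.26 and 6.71 CPM.

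Of 34 cluster genes with 50 or more counts in total, 15 (44.1%) had their lowest TPM in replicate 2, as had 5 of 10 such variant genes (50%) and 27.8% of 13625 tested genes. The highest TPM fell in replicate 1 for 15 and in replicate 3 for 13 of these cluster genes, and for 3 and 4 of the 10 variant genes, against 23.8% and 16.3% of all tested genes. Hist1h2bc and Hist1h2ak went the other way, with replicate 2 highest. Short noncoding RNAs without a poly(A) tail, given beside this as a list of 9, summed to 34.1, 23.1, 39.7 and 28.1 TPM and so were also lower in replicates 2 and 4. Rpph1, the RNA of RNase P, had 10.2, 3.82, 14.5 and 6.86 TPM, and Rn7sk had 14.96, 13.7, 16.5 and 14.4 TPM. Only 3 of the 9 reached 1 TPM in every library, and Rny1, Rny3 and Rnu11 had 0 counts. The 12 S phase genes summed to 2814, 2785, 2794 and 2851 TPM and did not share the order. The part of carried-over RNA without a poly(A) tail in the cluster sums was not tested. In bulk libraries fewer cells in S phase and less RNA per cell cannot be told apart.

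No member was called for spread between libraries beyond genes of its abundance. In edgeR's quasi-likelihood fit 32 members passed the count filter, 0 were called at an adjusted p under 0.05, and 1, Hist1h3c, had an unadjusted p under 0.05, with an adjusted p of 0.965. Over all 13625 genes tested, 1 was called (0.00734%), so a count of 0 among members is near the background. The median log2 ratio of dispersion to its trend was -0.22 in the 22 cluster genes tested, 0.10 in the 10 variant genes and -0.19 over all genes. DESeq2 marked 0 of 64 members as dispersion outliers and limma called 0 of 32. Without a filter 0 of 68 were called by edgeR and 5 had an unadjusted p under 0.05, led by Hist1h1a with 18, 5, 43 and 1 counts (adjusted p = 0.345 by edgeR).

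Genes that make, end and degrade cluster mRNA were all counted above the median cluster gene. All 9 genes of the transcription list reached 1 TPM in every library, among them Yy1 at 144 ± 24.6 TPM, Ccne1, the cyclin partner of Cdk2, at 123 ± 8.85 TPM, and Pou2f1 at 15.4 ± 1.44 TPM. Npat, the coactivator held at histone loci, had 36.1, 45.5, 33.9 and 37.8 TPM, highest in replicate 2. The cluster sum was lowest there, but 41.8% of all 13625 tested genes also had their highest TPM in replicate 2. The Npat peak is therefore not particular to it. All 11 genes of 3′ end processing reached it, from Ncbp1 (219 TPM) and Srrt (212 TPM) to Zfp473 (1.92 TPM). Slbp had 60.3, 68.9, 58.5 and 61.2 TPM. All 8 decay genes reached it too, with Lsm4 at 365 TPM, the helicase Upf1 at 196 TPM and the nuclease Dis3l2 lowest at 12.4 TPM.

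Chaperones, which carry histones to DNA, were present for both groups. All 10 genes for newly made H3 and H4 reached 1 TPM in every library, with Rbbp7 at 516 TPM, the CAF-1 subunit Chaf1a at 192 TPM and its partner Chaf1b at 28.3 TPM. All 6 genes for H3.3 did so, at lower levels, from Ubn1 (82.2 TPM) and Daxx (74.2 TPM) to Ubn2 (13.8 TPM). In the H2A.Z list all 11 did so, with Anp32e, which removes H2A.Z, at 531 TPM, Ruvbl2 at 198 TPM and Srcap at 5.11 TPM. Anp32e was uneven, at 464, 643, 448 and 569 TPM. All 6 H2A and H2B chaperones exceeded 100 TPM, with Npm1 at 1395 TPM, Ssrp1 at 540 TPM and Nap1l4 at 225 TPM. The medians of the lists were 54.2 TPM for transcription, 82.4 for 3′ processing, 42.1 for decay, 133 for H3 and H4 chaperones, 55.99 for H3.3, 58.5 for H2A.Z and 390 for H2A and H2B. The median cluster gene stood at 0.845 TPM and the median variant gene at 45.6 TPM.

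Centromeric and S phase genes were counted as well. Cenpa, the centromeric H3 outside the symbol rule, had 89.3 ± 2.93 TPM, its chaperone Hjurp 173 ± 8.99 TPM and Mis18a 43.3 ± 2.68 TPM. All 12 S phase genes reached 1 TPM in every library, with a median of 141 TPM. Rrm2, a subunit of ribonucleotide reductase, had 526 ± 10.01 TPM and the sliding clamp Pcna 501 ± 28.7 TPM. Rrm2 and Pcna were thus each counted above every cluster gene and near the level of H2afz and H3f3b.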

How the data were processed

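The files hold counts and gene lengths for 4 mouse regulatory T cell libraries. The authors deposited raw fragment counts, which featureCounts 1.4.6-p4 assigned to GENCODE M13 genes on mm10, per the file headers. Its command line asked for read pairs with both mates aligned, strand setting 2 (reverse) and exon features summed over gene identifiers. No aligner version is given in the sources used here. Each gene also comes with a deposited length, the merged exon length of a gene, which exceeds that of single transcripts where exons alternate.

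TPM was computed here from counts and this length. Of 50600 identifiers, 50376 matched a symbol, with gene types and transcripts from GENCODE M21 and promoters from RefSeq (GRCm38.p6). Coordinates are those of the files. The 4 libraries differed by more than sampling noise in every pairing. Pairs were compared within libraries by an exact two-sided sign-flip test with Benjamini-Hochberg adjustment over 11 pairs. Spread between libraries was examined in R 4.3.3 by edgeR 4.0.16 (TMM, filterByExpr, intercept only, robust prior, adjusted p under 0.05), checked on simulated data, with DESeq2 1.42.0 and limma 3.58.1 as alternatives. The other alternatives were a pseudocount of 1, CPM, other filters and normalizations, other detection thresholds and leaving out each replicate.

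The members, pairs and lists were chosen with earlier results of these data known. Genes named are those of the pairs, variants of 1 TPM or more, the 2 highest cluster genes of each class, any other of 10 TPM or more, and 3 genes per list, of which 1 is not reported here. Others, such as Hist1h1a, Npat, Slbp, Cenpa, Rpph1, Rn7sk, Hist1h2bg and the genes at 0, were chosen after their values were seen. Intervals and floors cover counting error only, since molecular identifiers are not described in the sources used here. Values were tabulated in Python 3.11.15 with pandas 2.3.3 and numpy 2.4.6, tested with scipy 1.17.1 and drawn with matplotlib 3.10.9.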

Additional observations from a re-analysis of the deposited data

Results flagged for a closer look

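Of 60 values tested for a library far from the other three, 3 passed Dixon's criterion. This is about the share that chance gives, 1 in 20. Hist1h1c was low in replicate 4, at 10.5 TPM, while the other libraries had 12.98 to 13.1 TPM. Hist1h2ae was low in replicate 2, at 4.21 TPM, while the others had 8.78 to 9.12 TPM. Hist1h2bc minus Hist1h2ac was high in replicate 2, at 6.74 on the log2(TPM + 0.1) scale against 3.11 to 3.62, because Hist1h2ac had 0 counts there.

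Among the pseudogenes left out by the symbol rule, H3f3a-ps1 on the X chromosome had counts in every library, 29, 21, 20 and 16, the lowest being 16. This exceeds the floor of 3 counts. The other three left-out pseudogenes had 0 to 4 counts per library.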

How the results depend on the processing

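Of 286 alternative values, 269 kept their direction, their side of the threshold or their size. The pairs did so in 65 of 66 cases, the exception being Hist3h2a minus Hist3h2ba. That difference turned to -0.17 without replicate 1 and reached 0.49 without replicate 4. For a pair with the same sign in every library, neither leaving out a replicate nor a pseudocount of 1 could change the direction. Those outcomes were fixed in advance, and only CPM could have turned such a pair. The levels of the named genes stayed within 1 SD in 100 of 100 cases, each with 1 replicate left out. A mean over 4 libraries cannot move by more than 1 SD in this way, so that count was fixed in advance. The same holds for the sums, class shares and median difference with 1 replicate left out. At 0.1 TPM in every library, 42 cluster genes were detected in place of 20. In CPM the summed level was 28.8 for cluster genes and 1485 for variant genes, and cluster genes made up 3.97% of the H1 class, 0.421% of H2A and 0.704% of H3. The median difference of cluster minus variant genes was -4.66 with a pseudocount of 1, -6.06 in CPM and -6.07 over the 52 cluster and 12 variant genes with at least 10 counts. Over all genes, 98 were called for spread without a filter, 5 with a minimum of 50 counts and 60 by DESeq2, and leaving out a replicate gave 1 to 18, with 2 without replicate 1 and 18 without replicate 2. No member was called in any of these settings. The median of the 3′ processing list was 80.9 to 83.2 TPM with a replicate left out, lowest without replicate 3, and that of the short noncoding RNAs 0.212 to 0.625 TPM, lowest without replicate 1. The causes of these shifts were not tested beyond what each setting changes by construction. No member is under 200 bases long, so leaving out such genes changed nothing. No paired analysis was possible because all 4 libraries belong to 1 group.

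Low counts limit what can be said of single cluster genes. The median cluster gene had 50 counts over all 4 libraries, and the median variant gene 4947. Near-identical copies leave the level of single H2A, H2B, H3 and H4 cluster genes uncertain, and whether sums over classes are less affected was not tested.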
